A study of Mus musculus with 15 samples.

Results

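The genes described here are 10 genes that leukocytes, or the myeloid cells among them, share: Ptprc, Laptm5, Ctss, Tyrobp, Fcer1g, Cd52, Cd53, Coro1a, Lyz2 and Itgb2. They were taken as a given list and matched by symbol to the Ensembl identifiers of the mouse genome build GRCm38, and all 10 were found among the 54838 genes of the files. RNA was sequenced in 15 mouse libraries, 3 in each of 5 groups. Of these, 2 groups were 4T1 cells, a mammary carcinoma line of BALB/c origin, either grown in culture (in vitro) or isolated from lungs of BALB/c mice 7 days after injection into the tail vein (in vivo). The other 3 groups were lung epithelial cells sorted by flow cytometry, whose titles name the epithelial protein EpCAM. Their lungs were taken 7 days after 800000 4T1 cells that mark adjacent cells had been injected into the tail vein. They came from distal lung (distal), from the labelled metastatic niche (niche), or from the niche under the label shSox9. All 3 epithelial groups thus came from lungs that carried 4T1 cells, and 5 lungs were pooled for each biological replicate. Which cells received the hairpin against Sox9, the animals' age and sex, and any removal of leukocytes during the sort are not given in the sources used.

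Leukocytes arise from blood stem cells, and a set of genes is active in nearly all of them whatever their later type. Ptprc encodes CD45, the receptor tyrosine phosphatase by which leukocytes are usually recognised and sorted. Tyrobp and Fcer1g encode small membrane adaptors whose intracellular tyrosine motifs recruit the kinase Syk once a partner receptor is engaged. In the lung, resident macrophages of the airspaces and of the tissue carry such genes, and mouse alveolar type 2 (AT2) cells, the surfactant-making epithelium, are also known to make lysozyme from Lyz2.

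RefSeq promoter windows (GRCm38.p6) were matched for 7 of the 10 genes, in 9 windows, and 3 motifs were searched on both strands in the 250 bases before each start site. These were GAGGAA, the core of sites for the myeloid factor PU.1, TGTGGT, the core of RUNX sites, and the core of interferon-stimulated response elements, a pair of GAAA separated by NN. GAGGAA was present in 4 of 9 windows (44.4%), against 23.3% of all 32851 windows. These were 1 of the 2 windows of Ptprc and those of Laptm5, Ctss and Cd53. The matches of Ptprc and Laptm5 lay inside the annotated gene. TGTGGT was present in 2 of 9, those of Cd53 and Lyz2, against 4614 of all 32851, and the interferon-stimulated core in 1, that of Ctss, against 2.98% of all. A match describes these letters only. Promoters of 3 genes are shown because the genes stand for the range of patterns below: Ctss differed most between niche and distal epithelium, Cd53 lay near the common profile, and Lyz2 went the other way. Each is read 5′ to 3′ in the direction of its gene, and capitals mark the motif matches. The Ctss sequence is chr3:95526536-95526785 on the plus strand, with GAGGAA and then the interferon-stimulated core. The Cd53 sequence is chr3:106790150-106790399 on the minus strand, with TGTGGT and then GAGGAA. The Lyz2 sequence is chr10:117282322-117282522 on the minus strand, cut to the 201 bases outside the annotated gene, with TGTGGT on the opposite strand.
Ctss: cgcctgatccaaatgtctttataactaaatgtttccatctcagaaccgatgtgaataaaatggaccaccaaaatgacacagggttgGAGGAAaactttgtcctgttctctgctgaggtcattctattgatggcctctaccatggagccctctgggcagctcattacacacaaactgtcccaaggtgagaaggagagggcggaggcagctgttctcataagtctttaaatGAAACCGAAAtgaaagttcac
Cd53: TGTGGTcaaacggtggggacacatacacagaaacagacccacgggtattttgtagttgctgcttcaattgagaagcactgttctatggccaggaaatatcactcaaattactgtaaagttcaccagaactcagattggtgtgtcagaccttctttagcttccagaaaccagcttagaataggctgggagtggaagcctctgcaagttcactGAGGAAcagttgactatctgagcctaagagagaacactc
Lyz2: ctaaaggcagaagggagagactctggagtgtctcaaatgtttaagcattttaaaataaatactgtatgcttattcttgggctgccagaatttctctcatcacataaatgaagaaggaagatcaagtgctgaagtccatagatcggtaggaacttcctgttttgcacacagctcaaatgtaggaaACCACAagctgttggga

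On GRCm38, with GENCODE annotation, Ptprc lies on chromosome 1 (138062861 to 138175708, minus strand), as does Fcer1g (171229572 to 171234365, minus strand). Ctss (95526786 to 95556403, plus strand) and Cd53 (106759921 to 106790149, minus strand) lie on chromosome 3, and Laptm5 (130913125 to 130936141, plus strand) and Cd52 (134082448 to 134095082, minus strand) on chromosome 4. Tyrobp (30413760 to 30417585, plus strand) and Coro1a (126699773 to 126707787, minus strand) lie on chromosome 7, and Itgb2 (77530252 to 77565708, plus strand) and Lyz2 (117277331 to 117282321, minus strand) on chromosome 10. All 10 are protein-coding, and values are sums over whole genes.

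Libraries held 15907316 to 30421705 counts, so 3 counts, the upper limit for a gene with 0 counts, stood for 0.0986 to 0.189 CPM, the unit of counts after scaling for depth. The AT2 marker list, 10 genes led by Sftpc, summed to 332272 to 395249 TPM (length-scaled transcript units with one total per library) in distal libraries, 19376 to 25157 in niche libraries and 69393 to 117182 under the label shSox9. Sftpc alone took 30.0% to 35.5% of TPM in distal libraries and 1.74% to 2.24% in niche libraries. Changes of the 10 genes between groups are therefore given in CPM after TMM scaling. Different genes are compared in TPM, which is scaled for length. Sums over marker lists, the ranking of profiles and a few ranges of other genes are in TPM too. Between groups, these values carry the Sftpc share, which lowers the TPM of other genes most in distal libraries. Sox9 itself stood at 33.5 to 64.3 CPM in niche libraries and at 38.0 to 84.3 under the label shSox9, so the label shSox9 did not go with lower Sox9, and the group name only repeats that label. Where a gene is lower in such bulk samples, fewer cells of a type and less RNA per cell cannot be told apart.

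**Figure D1:**
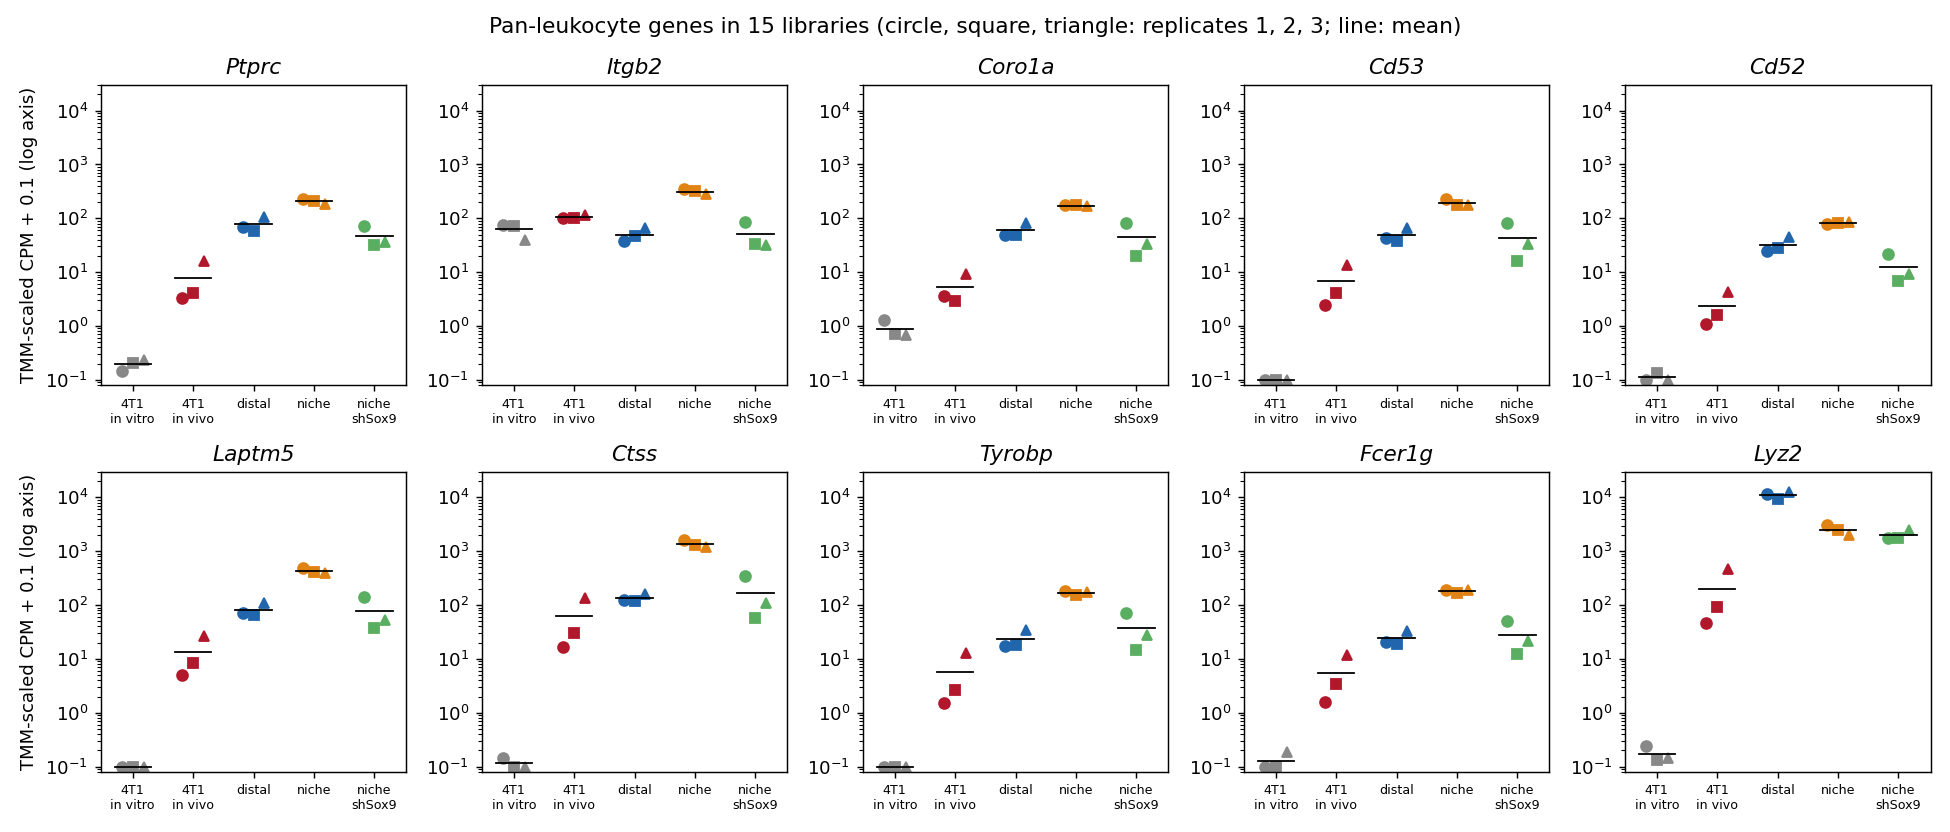
Levels of the 10 genes in each of the 15 libraries, as CPM after TMM scaling on a log scale, by group. Niche libraries stand highest for every gene except Lyz2, which is highest in distal libraries, and Itgb2 is the gene with a high level in cultured 4T1 cells.

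In cultured 4T1 cells the list was close to absent, apart from 2 genes, and every gene was higher in the cells recovered from lung. Laptm5, Tyrobp and Cd53 had 0 counts in all 3 cultures, and Ptprc, Ctss, Fcer1g, Cd52 and Lyz2 had 1 to 7 counts over the group. Coro1a, which encodes an actin-binding protein of leukocytes, stood at 1.18, 0.611 and 0.570 CPM in culture. Itgb2, which encodes the beta 2 chain of the leukocyte integrins, stood at 73.5, 72.9 and 39.4 CPM there, so this gene does not mark leukocytes in these libraries by its presence alone.

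All 10 genes were called higher in vivo than in vitro by edgeR (adjusted p below 0.05 over all genes tested, with a largest adjusted p of 0.00812), where 27.0% of the 14022 genes tested were called higher, 24.0% lower and 51.0% in either direction. Coro1a and Itgb2 aside, the other 8 genes were under the filter's minimum of 0.498 CPM in all 3 cultures, so they passed the filter on low counts through the in vivo libraries alone and had to differ. Their count, median, adjusted p-values and lack of overlap with the cultures are therefore a description. For the 3 genes at 0 in culture the folds are lower bounds, taken against 3 counts summed over the cultures: Laptm5 was at least 320-fold higher, Cd53 at least 161-fold higher and Tyrobp at least 132-fold higher. The median log2 fold change of the 10 genes was 8.70 as fitted and 7.19 with those 3 at their bounds, against 0.012 over all genes.

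Single libraries differed widely within the in vivo group. Ptprc stood at 3.26, 3.95 and 15.8 CPM in vivo and at 0.047, 0.102 and 0.132 in vitro, a log2 fold change of 6.30 (SE 0.82, edgeR adjusted p = 0.000244). Ctss, which encodes the lysosomal protease cathepsin S, stood at 16.8, 30.4 and 137 CPM in vivo against a single count over the 3 cultures, a ratio of counts of 4391 (95% counting interval 788 to 173481). Lyz2 stood at 45.7, 91.5 and 471 CPM in vivo and at 0.142, 0.034 and 0.044 in vitro, a log2 fold change of 11.47 (SE 1.35, edgeR adjusted p = 0.000136). For each of these genes the third in vivo library was several-fold above the other two, and no in vivo library overlapped a culture.

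Another 5 genes repeated this order of libraries. Laptm5 stood at 4.99, 8.14 and 26.9 CPM in vivo, Tyrobp at 1.44, 2.49 and 12.6, and Cd53 at 2.40, 4.05 and 13.8. Fcer1g stood at 1.49, 3.39 and 11.5 CPM in vivo against 2 counts over the cultures, a ratio of 196 (95% counting interval 53.9 to 1629). Cd52, which encodes a small glycoprotein of the leukocyte surface, stood at 1.01, 1.51 and 4.10 CPM against 1 count, a ratio of 159 (28.1 to 6327). Replicate 3 was thus the highest in vivo library for 10 of 10 genes, at 1.15 to 10.3 times replicate 1. As each library was left out, 6034 to 7378 of all genes were called in either direction. The list was called higher for 10 of 10 genes without replicate 3 as well as with it. For the 8 genes that passed the filter through the in vivo libraries alone, this too is only a description.

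Coro1a and Itgb2, the genes with a level in culture, differed least. Coro1a stood at 3.50, 2.82 and 9.10 CPM in vivo, a log2 fold change of 2.76 (SE 0.50, edgeR adjusted p = 0.00154). Itgb2 stood at 99.5, 103 and 115 CPM in vivo, a log2 fold change of 0.82 (SE 0.20, edgeR adjusted p = 0.00812). For Itgb2 the 3 in vivo libraries were close together, unlike the other 9 genes, and the call was lost when all 15 libraries shared one estimate of the spread (adjusted p = 0.0584).

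Several lists of markers of single cell types, though not all, were highest in the third in vivo library. The 12 alveolar macrophage markers, among them Chil3, Ear2, Mrc1 and Car4, summed to 187 TPM there against 23.4 and 27.7 in replicates 1 and 2 and 0.40 to 0.63 in culture, where 7 of the 12 were at 0 counts. The 14 markers of interstitial macrophages and monocytes summed to 97.9 TPM against 37.4 and 44.5, and 6 of them were at 0 counts in culture. AT2 markers summed to 230 TPM against 144 and 151. The epithelial surface and keratin list, led by Krt8 and Krt18, summed to 3851 to 4465 TPM in the 3 in vivo libraries and 3852 to 4454 in culture. The part of other cell types in the in vivo levels was not tested.

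In lung epithelium, 9 of the 10 genes were called higher in niche than in distal libraries and Lyz2 was called lower, where 28.5% of the 17640 genes tested were called higher, 25.8% lower and 54.3% in either direction. None of the 10 genes overlapped between these groups, and 66.2% of all genes tested did not overlap either. Under the label shSox9, the same 9 genes were called lower than in niche libraries and Lyz2 was not called, where 10.8% of genes were called lower, 9.68% higher and 20.5% in either direction. The median log2 fold change of the 10 genes was 2.05 from distal to niche, against 0.023 over all genes, and -2.28 from niche to shSox9, against 0.016. These comparisons share the niche libraries, so the second is not independent of the first. Values are given below by role, with replicates in the order 1, 2 and 3.

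**Figure D2:**
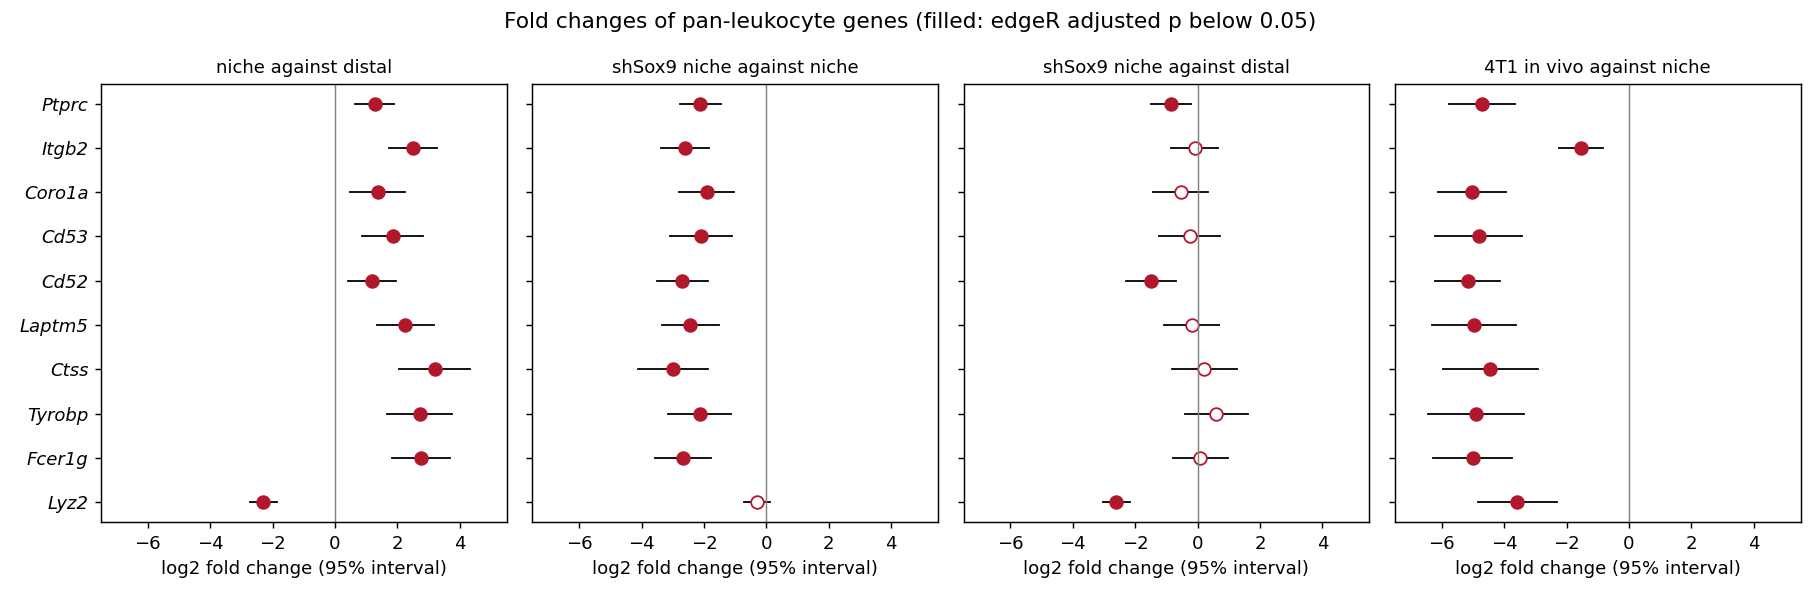
Log2 fold changes of the 10 genes in each comparison of the edgeR fit, with 95% intervals. From distal to niche 9 genes lie above 0 and Lyz2 below, from niche to shSox9 the same 9 lie below 0, and between shSox9 and distal most intervals cross 0.

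Among surface proteins, Ptprc stood at 70.2, 57.9 and 105 CPM in distal, 227, 207 and 188 in niche and 71.9, 31.3 and 36.9 in shSox9 libraries. It was 2.41-fold higher in niche than in distal libraries (log2 1.27, SE 0.29, edgeR adjusted p = 0.0032) and had a log2 fold change of -2.12 from niche to shSox9 (SE 0.30, adjusted p = 0.000707). Both niche groups were apart, while the first shSox9 library reached the distal range. Cd53, which encodes a tetraspanin of the leukocyte surface, stood at 42.5, 38.0 and 65.1 CPM in distal, 232, 174 and 173 in niche and 82.3, 16.2 and 33.0 in shSox9 libraries. Its log2 fold change was 1.85 from distal to niche (SE 0.45, edgeR adjusted p = 0.0048) and -2.10 from niche to shSox9 (SE 0.45, adjusted p = 0.00783). The first shSox9 library was above all distal libraries and the other two were below them all.

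Cd52 stood at 24.8, 27.7 and 44.2 CPM in distal, 76.6, 80.2 and 86.7 in niche and 21.2, 6.62 and 8.94 in shSox9 libraries. It had the smallest rise of the list, with a log2 fold change of 1.19 (SE 0.35, edgeR adjusted p = 0.0131), followed by a log2 fold change of -2.69 from niche to shSox9 (SE 0.37, adjusted p = 0.000635). All 3 shSox9 libraries lay under the lowest distal library. Coro1a stood at 49.4, 48.4 and 82.0 CPM in distal, 176, 173 and 166 in niche and 80.3, 19.6 and 33.5 in shSox9 libraries. Its log2 fold change was 1.37 from distal to niche (SE 0.40, edgeR adjusted p = 0.0128) and -1.91 from niche to shSox9 (SE 0.41, adjusted p = 0.00716). Cd52 and Coro1a were not called between niche and distal libraries without distal replicate 1 or without distal replicate 2 (edgeR adjusted p of 0.0527 to 0.0578), which left 7 genes called higher.

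The adhesion chain Itgb2 stood at 37.5, 46.2 and 65.3 CPM in distal, 344, 316 and 278 in niche and 85.3, 33.1 and 32.0 in shSox9 libraries. It was 5.69-fold higher in niche than in distal libraries (log2 2.51, SE 0.35, edgeR adjusted p = 0.000116) and its log2 fold change from niche to shSox9 was -2.60 (SE 0.35, adjusted p = 0.000568). The cultured 4T1 cells, at 39.4 to 73.5 CPM, thus overlapped the distal epithelium for this gene. In vivo 4T1 cells, at 99.5 to 115 CPM, were above both distal and shSox9 libraries and under niche libraries.

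Both lysosomal genes had higher folds between niche and distal libraries than Ptprc, Cd53 and Cd52, though the order of folds between genes was not tested. Laptm5, which encodes a lysosomal membrane protein of blood cells, stood at 69.7, 65.3 and 110 CPM in distal, 487, 411 and 397 in niche and 143, 37.1 and 52.7 in shSox9 libraries. It was 4.77-fold higher in niche than in distal libraries (log2 2.25, SE 0.42, edgeR adjusted p = 0.000791), with -2.44 from niche to shSox9 (SE 0.42, adjusted p = 0.00214). Ctss stood at 124, 119 and 162 CPM in distal, 1639, 1290 and 1195 in niche and 341, 57.3 and 110 in shSox9 libraries. With a 9.18-fold difference between niche and distal libraries (log2 3.20, SE 0.52, edgeR adjusted p = 0.000324) it had the highest fold of the list, and its log2 fold change from niche to shSox9 was -2.98 (SE 0.51, adjusted p = 0.00219). In shSox9 libraries Ctss was the gene with the widest spread, replicate 1 standing at 5.96 times replicate 2.

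Among adaptors, Tyrobp, the partner of TREM and other activating receptors, stood at 17.6, 17.9 and 34.1 CPM in distal, 183, 151 and 172 in niche and 70.7, 14.4 and 28.1 in shSox9 libraries. Its fold between niche and distal libraries was 6.59 (log2 2.72, SE 0.48, edgeR adjusted p = 0.000551), and its log2 fold change from niche to shSox9 was -2.13 (SE 0.46, adjusted p = 0.00783). Fcer1g, the gamma chain shared by Fc receptors, stood at 20.6, 18.5 and 33.3 CPM in distal, 187, 168 and 187 in niche and 49.8, 12.1 and 21.3 in shSox9 libraries. Its fold was 6.77 (log2 2.76, SE 0.42, edgeR adjusted p = 0.000199), with -2.67 from niche to shSox9 (SE 0.41, adjusted p = 0.00121). The adaptors thus gave nearly the same folds between niche and distal libraries, and in both the third distal library stood above the other distal libraries.

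Lyz2 went against the other 9 genes. It stood at 11487, 9387 and 12505 CPM in distal, 3017, 2481 and 2037 in niche and 1795, 1753 and 2429 in shSox9 libraries. It was lower in niche than in distal libraries, with a log2 fold change of -2.30, a fold of 0.203 (SE 0.20, edgeR adjusted p = 3.34e-06). Between niche and shSox9 libraries the groups overlapped, with a log2 fold change of -0.31 (95% interval -0.72 to 0.11, edgeR adjusted p = 0.284). Lyz2 alone took 0.885% to 1.14% of all counts in distal libraries and 0.201% to 0.304% in niche libraries. The other 9 genes together took 0.0400% to 0.0641% in distal, 0.280% to 0.358% in niche and 0.0228% to 0.102% in shSox9 libraries. Lyz1, a near-identical copy of Lyz2, stood at 5194 to 7046 CPM in distal, 191 to 276 in niche and 723 to 1312 in shSox9 libraries. How the authors' counting split reads between the pair is uncertain. Lower levels of AT2 markers went with lower Lyz2 in niche libraries: 10 of 10 AT2 markers were called lower there, Sftpc by a log2 fold change of -4.56 (SE 0.32, edgeR adjusted p = 7.62e-07). Under the label shSox9 10 of 10 AT2 markers were called higher than in niche libraries, Sftpc by 2.11 (SE 0.28, adjusted p = 0.000564), while Lyz2 was not called. The part of the AT2 transcripts in the Lyz2 levels was not tested.

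The scale bears on the size of these differences. Across all genes, 52.5% of the calls between niche and distal libraries were higher in niche by edgeR, and 81.2% by limma on log2(TPM + 1), where the median of all genes moved from 0.023 to 0.55. Between shSox9 and distal libraries the share went from 49.7% to 83.4%, with the median at 0.50. The 9 genes called higher in niche and Lyz2, called lower, kept their calls under that scale. On it, 8995 of the 16476 genes tested were called higher in niche than in distal libraries and 2081 lower.

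Against distal epithelium, most of the list could not be told apart from the shSox9 libraries. Called lower under the label were 3 of the 10 genes, Ptprc, Cd52 and Lyz2, and 7 were not called, where 22.0% of the genes tested were called lower, 21.7% higher and 43.8% in either direction. Lyz2 had a log2 fold change of -2.60 (SE 0.20, edgeR adjusted p = 3.01e-06), Cd52 had a fold of 0.353 (adjusted p = 0.00589) and Ptprc had a log2 fold change of -0.85 (SE 0.29, adjusted p = 0.0347). Ptprc nevertheless overlapped between the groups. The 95% intervals of the 7 other log2 fold changes were -1.07 to 0.69 for Laptm5, -0.83 to 1.27 for Ctss, -0.42 to 1.60 for Tyrobp and -0.80 to 0.98 for Fcer1g. For Cd53, Coro1a and Itgb2 they were -1.23 to 0.72, -1.42 to 0.34 and -0.84 to 0.65. A p that misses the threshold does not show equal levels, and these intervals reach from -1.42 to 1.60.

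The count of 3 depended on the first shSox9 library. Replicate 1 was the highest shSox9 library for 9 of 10 genes, at 2.30 (Ptprc) to 5.96 (Ctss) times replicate 2, whereas for Lyz2 it was 1.02 times replicate 2. Without it, 8 of the 10 genes were called lower than in distal libraries in place of 3, where 22.0% of all genes tested in that fit were called lower, with Laptm5 at -0.99 (edgeR adjusted p = 0.00386), Cd53 at -1.11 (0.00921), Coro1a at -1.31 (0.00141), Itgb2 at -0.73 (0.00912) and Ctss at -0.82 (0.0196). Between shSox9 and niche libraries, 9 genes were called lower with or without it, and their log2 fold changes were further from 0 without it, at -4.02 for Ctss, -2.98 for Tyrobp, -3.25 for Laptm5, -2.96 for Cd53 and -2.59 for Ptprc. As each library of those groups was left out, 2238 to 4224 of all genes were called in either direction. In shSox9 replicate 1, interstitial macrophage and monocyte markers summed to 1368 TPM against 429 and 604 in replicates 2 and 3. AT2 markers summed to 69393 there against 100497 and 117182. Dendritic cell markers summed to 92.6 there against 17.2 and 25.1, and neutrophil markers to 405 against 160 and 262. T cell markers were not higher there, at 42.25 against 43.79 and 45.29. The part of any of these cell types in its place was not tested. The third distal library was likewise the highest distal library for 10 of 10 genes. Several marker lists were highest there. Neutrophil markers summed to 201 TPM against 128 and 87.7, and interstitial macrophage and monocyte markers to 518 against 339 and 383. T cell markers summed to 91.8 against 49.6 and 56.9. Alveolar macrophage markers were lowest there, at 20.4 against 36.6 and 31.0.

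Compared with niche epithelium, in vivo 4T1 cells had lower levels of all 10 genes by the fit of all 15 libraries, where 36.0% of the 18242 genes tested were called lower, 28.9% higher and 64.8% in either direction. The log2 fold changes ran from -5.18 for Cd52 (SE 0.48, edgeR adjusted p = 1.84e-07) to -1.53 for Itgb2 (SE 0.33, adjusted p = 0.000737), with a median of -4.86 against -0.097 over all genes. Lyz2 stood at -3.58 (SE 0.60, adjusted p = 7.45e-05) and Ptprc at -4.72 (SE 0.50, adjusted p = 6.47e-07). Without in vivo replicate 3 these were -5.19 for Lyz2 and -5.84 for Ptprc, the log2 fold changes of the 10 genes ran from -6.41 for Tyrobp to -1.62 for Itgb2, and all 10 were still called lower. As each library of the compared groups was left out, 11011 to 11271 of all genes were called in either direction. With the size factors of DESeq2's method in place of TMM the median of all genes was -0.21.

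Ordered by mean level, 5 genes (Ptprc, Laptm5, Cd52, Cd53 and Coro1a) ran niche, distal, shSox9, in vivo and in vitro. Ctss, Tyrobp and Fcer1g ran niche, shSox9, distal, in vivo and in vitro. For all of these except Cd52 the neighbours distal and shSox9 overlapped, so their order is not resolved, and for Ctss the distal and in vivo libraries overlapped too. Lyz2 ran distal, niche, shSox9, in vivo and in vitro, with niche and shSox9 overlapping. Itgb2 ran niche, in vivo, in vitro, shSox9 and distal, with the last 3 groups overlapping.

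Per transcript length, the list itself was uneven. In niche libraries Lyz2 stood at 2479 to 3743 TPM and Ctss at 1410 to 1971, followed by Tyrobp at 474 to 580 and Fcer1g at 440 to 489. Ptprc was the lowest of the 10 genes there, at 76.0 to 91.8 TPM. Between these lay Cd52 at 275 to 306, Laptm5 at 251 to 323, Cd53 at 157 to 214, Coro1a at 167 to 177 and Itgb2 at 150 to 185 TPM. In cultured 4T1 cells Itgb2 was the highest of the list in every library, and in distal, niche and shSox9 libraries Lyz2 was.

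A ratio to Ptprc within one library shows whether the genes changed in equal measure, since both TPM values share the library's scale. Ctss stood at 3.94 to 5.90 times Ptprc in distal, 18.4 to 21.5 in niche and 4.55 to 13.8 in shSox9 libraries. Lyz2 stood at 313 to 481 times Ptprc in distal, 32.6 to 40.8 in niche and 75.0 to 201 in shSox9 libraries. The ratios of these genes thus differed in opposite directions between distal and niche libraries, without overlap. Tyrobp stood at 1.87 to 2.34 in distal and 5.67 to 7.09 in niche libraries, and Fcer1g at 1.78 to 2.01 and 5.25 to 6.33. Cd52, with medians of 3.20 in distal and 3.42 in niche libraries, and Coro1a, at 1.67 to 2.01 and 1.93 to 2.19, overlapped.

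**Figure D3:**
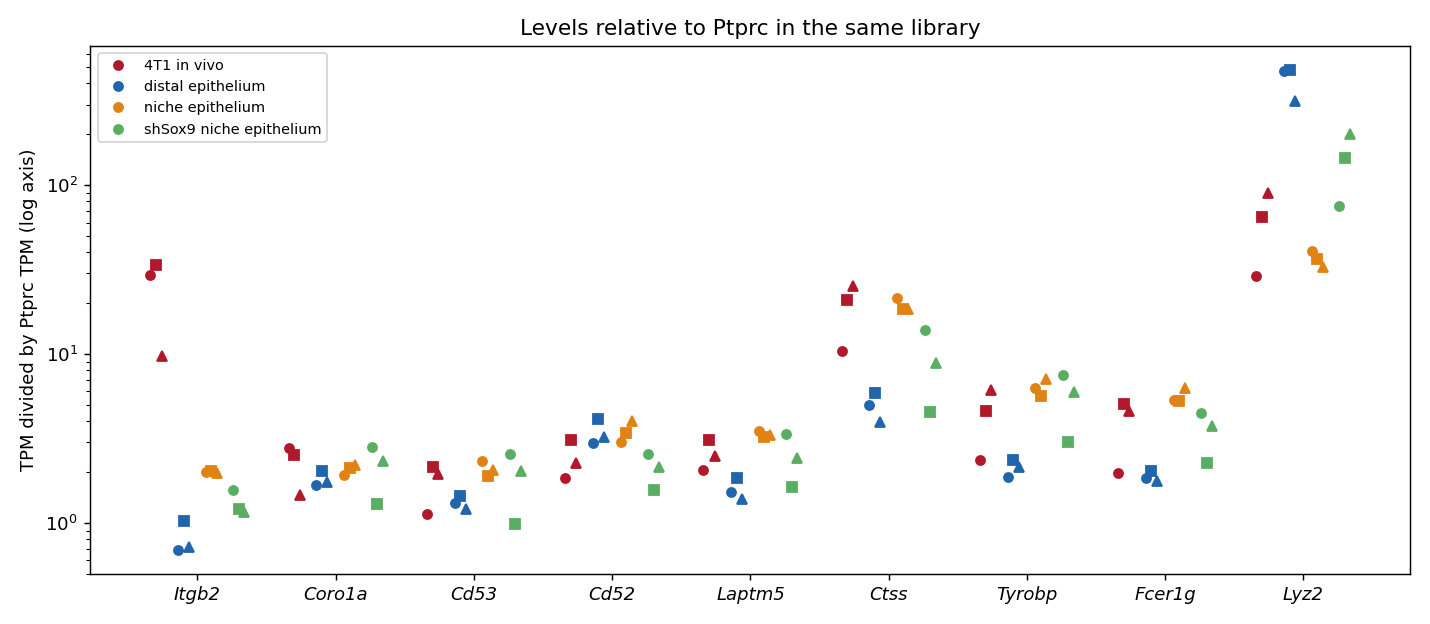
TPM of each gene divided by TPM of Ptprc in the same library, on a log scale, for the 12 libraries of cells from lung. From distal to niche libraries 6 of 9 ratios are higher without overlap, Lyz2 is lower, and Cd52 and Coro1a overlap.

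In all, 6 of the 9 ratios (Laptm5, Ctss, Tyrobp, Fcer1g, Cd53 and Itgb2) were higher in niche than in distal libraries without overlap, 1 (Lyz2) was lower, and 2 overlapped. From niche to shSox9 libraries 4 ratios (Ctss, Fcer1g, Cd52 and Itgb2) were lower without overlap, Lyz2 was higher, and 4 overlapped. Each ratio without overlap gave an exact permutation p of 0.1 (two-sided), the smallest that 3 against 3 libraries allow, and 0.15 after Benjamini-Hochberg adjustment over 18 comparisons. None of the ratios could therefore pass 0.05 in this design. Ptprc itself differed between the groups, which sets the level of this ratio for all genes: of the 17639 other genes tested, 5.02% had a higher ratio without overlap in niche than in distal libraries and 65.6% a lower one. From niche to shSox9 0.884% had a lower ratio and 89.2% a higher one. The ratios of Lyz2 thus differed in the direction taken by most genes. In vivo 4T1 cells had an Itgb2 ratio of 9.69 to 33.7, above the 1.98 to 2.03 of niche libraries, and a Ctss ratio of 10.4 to 25.2, which overlapped the niche range.

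Other genes of the same cells and pathways were counted in lists chosen for their roles. Paired values below are log2 fold changes, first of niche against distal and then of shSox9 against niche libraries. Of 20 other pan-leukocyte genes, 18 were called higher in niche than in distal libraries, with a list median of 1.51 on the log2 scale against 0.023 over all genes, and 18 were called lower from niche to shSox9. Arhgdib had log2 fold changes of 1.81 (SE 0.26, edgeR adjusted p = 0.000148), then -2.05 (SE 0.26, adjusted p = 0.00044), and Lcp1, an actin-bundling protein, 1.06 (SE 0.30, adjusted p = 0.0103), then -2.02 (SE 0.30, adjusted p = 0.00103). Among 19 tested genes of signalling through tyrosine motifs, the pathway that Tyrobp and Fcer1g feed, 18 were called higher in niche libraries and 15 lower under the label. The Fc receptor Fcgr3 had 3.31 (SE 0.49, edgeR adjusted p = 0.000178), then -2.49 (SE 0.47, adjusted p = 0.00376), and the fungal glucan receptor Clec7a 3.41 (SE 0.46, adjusted p = 8.41e-05), then -2.72 (SE 0.44, adjusted p = 0.00152). The phospholipase Plcg2 was called higher in niche libraries, at 1.95, but not called under the label, at -0.46 (edgeR adjusted p = 0.354).

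All 6 genes of the phagocyte oxidase, the enzyme that makes superoxide, were called higher in niche libraries and lower under the label. Cybb, its catalytic chain, had 2.88 (SE 0.42, edgeR adjusted p = 0.000164), then -3.08 (SE 0.43, adjusted p = 0.000659), and Cyba, its partner chain, 1.28 (SE 0.17, adjusted p = 9e-05), then -1.24 (SE 0.17, adjusted p = 0.000662). The partners and ligands of leukocyte integrins were mixed between niche and distal libraries. From niche to shSox9, 7 of 9 tested were called lower and 0 higher. The alpha chains Itgal, Itgam and Itgax were called higher in niche libraries, at 1.40, 1.37 and 2.81. They were then called lower, at -2.36, -1.63 and -3.07. Of 9 tested, 5 were called higher in niche libraries and 2 lower, the latter being Icam1, a ligand of the Itgb2 integrins, at -1.32 (SE 0.14, edgeR adjusted p = 1.3e-05), and Itgb7 at -1.13 (SE 0.27, adjusted p = 0.00424). Of 15 broadly expressed lysosomal genes, the housekeeping counterpart of Ctss and Laptm5, 10 were called higher in niche libraries and 2 lower, and 10 were called lower from niche to shSox9. Psap, the precursor of lysosomal lipid activators, had 1.85 (SE 0.15, edgeR adjusted p = 2.19e-06), then -1.44 (SE 0.15, adjusted p = 0.000149).

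Markers of single leukocyte types did not all move with the list. Of the 14 markers of interstitial macrophages and monocytes, 13 were called higher in niche than in distal libraries and 14 lower from niche to shSox9. Their summed TPM was 339 to 518 in distal, 3933 to 4976 in niche and 429 to 1368 in shSox9 libraries. The complement gene C1qb, at 0 counts in culture, had log2 fold changes of 3.50 (SE 0.57, edgeR adjusted p = 0.000317), then -2.94 (SE 0.55, adjusted p = 0.0036). Of the 12 alveolar macrophage markers 11 were called higher and 10 lower. Among the 11, 1 was at 0 counts in all distal libraries and passed the filter through other libraries, so its call is a description. The list summed to 20.4 to 36.6 TPM in distal libraries, 1822, 407 and 325 in niche libraries and 35.2 to 75.3 under the label. One niche library, replicate 1, thus stood far above the other niche libraries for that list. It was also the highest niche library for 8 of the 10 genes, though Ptprc, at 227 CPM there against 207 and 188, differed far less.

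Lymphoid and granulocytic markers had other patterns. Of 12 T cell markers, 8 were called lower in niche than in distal libraries and 2 higher. Their median log2 fold change was -1.25. Their sums nevertheless overlapped, at 49.6 to 91.8 TPM in distal and 58.7 to 83.4 in niche libraries. These sums are in TPM, which the Sftpc share lowers in distal libraries. Cd2, 1 of those called higher, stood at 8.46 to 12.4 TPM in distal and 15.4 to 35.8 in niche libraries. B cell markers had 5 of 10 called lower and 1 higher. The immunoglobulin light chain gene Igkc alone stood at 2055 to 5314 TPM in distal and 65.1 to 87.9 in niche libraries, and the other 9 B cell markers summed to 74.5 to 167 TPM in distal, 129 to 153 in niche and 29.5 to 49.2 in shSox9 libraries. Ighm, the heavy chain gene, was not called between niche and distal libraries, at 0.11 (edgeR adjusted p = 0.801). Of 10 tested neutrophil markers 2 were called higher in niche libraries and 1 lower, shares under those over all genes, 28.5% and 25.8%. Mmp9, 1 of those called higher, also stood at 64.1 to 81.6 TPM in 4T1 cells in vivo and 7.80 to 15.2 in culture. S100a8 was not called in niche against distal libraries, at -0.71 (edgeR adjusted p = 0.199), nor from niche to shSox9, at 1.11 (adjusted p = 0.1). Of 6 tested natural killer cell markers 1, Klrk1, was called higher in niche libraries, at 1.99 (SE 0.38, edgeR adjusted p = 0.00107), and 1, Gzma, lower, at -0.98 (SE 0.29, adjusted p = 0.0149). Of 9 dendritic cell markers 1 was called higher in niche than in distal libraries and 0 lower, where 28.5% of all genes tested were called higher. From niche to shSox9, 4 of the 9 dendritic cell markers were called lower and 0 higher, where 10.8% of all genes were called lower. In that comparison 2 of 12 T cell, 2 of 10 B cell and 1 of 6 natural killer cell markers were called lower. Of these, only the T cell list had a marker called higher, 1 of 12. The part of any of these leukocyte types in the levels of the 10 genes was not tested either.

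Markers of 2 other cell groups moved too. Of the 10 fibroblast markers 6 were called higher in niche than in distal libraries and 2 lower, and 3 were called higher from niche to shSox9. They summed to 2333 to 3113 TPM in distal, 4815 to 5419 in niche and 5016 to 7395 in shSox9 libraries. The collagen gene Col1a1 had a log2 fold change of 2.35 from distal to niche (SE 0.20, edgeR adjusted p = 3.68e-06) and was not called from niche to shSox9, at -0.04 (adjusted p = 0.921). Epcam, which the titles name and which is described here after its values were seen, stood at 97.7, 81.0 and 98.7 CPM in distal, 69.5, 75.2 and 30.2 in niche and 33.3, 28.1 and 24.5 in shSox9 libraries. It was called lower in niche than in distal libraries, at -0.82 (SE 0.26, edgeR adjusted p = 0.02), and lower again from niche to shSox9 (edgeR adjusted p = 0.0213). The list of 8 epithelial surface and keratin markers that holds Epcam was mixed, with 4 called lower and 2 higher in niche than in distal libraries. From niche to shSox9, 1 of the 8, Epcam, was called lower, 1 higher and 6 were not called. The list summed to 689 to 793 TPM in distal, 724 to 1637 in niche and 865 to 1535 in shSox9 libraries. The part of these cells in the levels of the 10 genes was not tested.

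**Figure D4:**
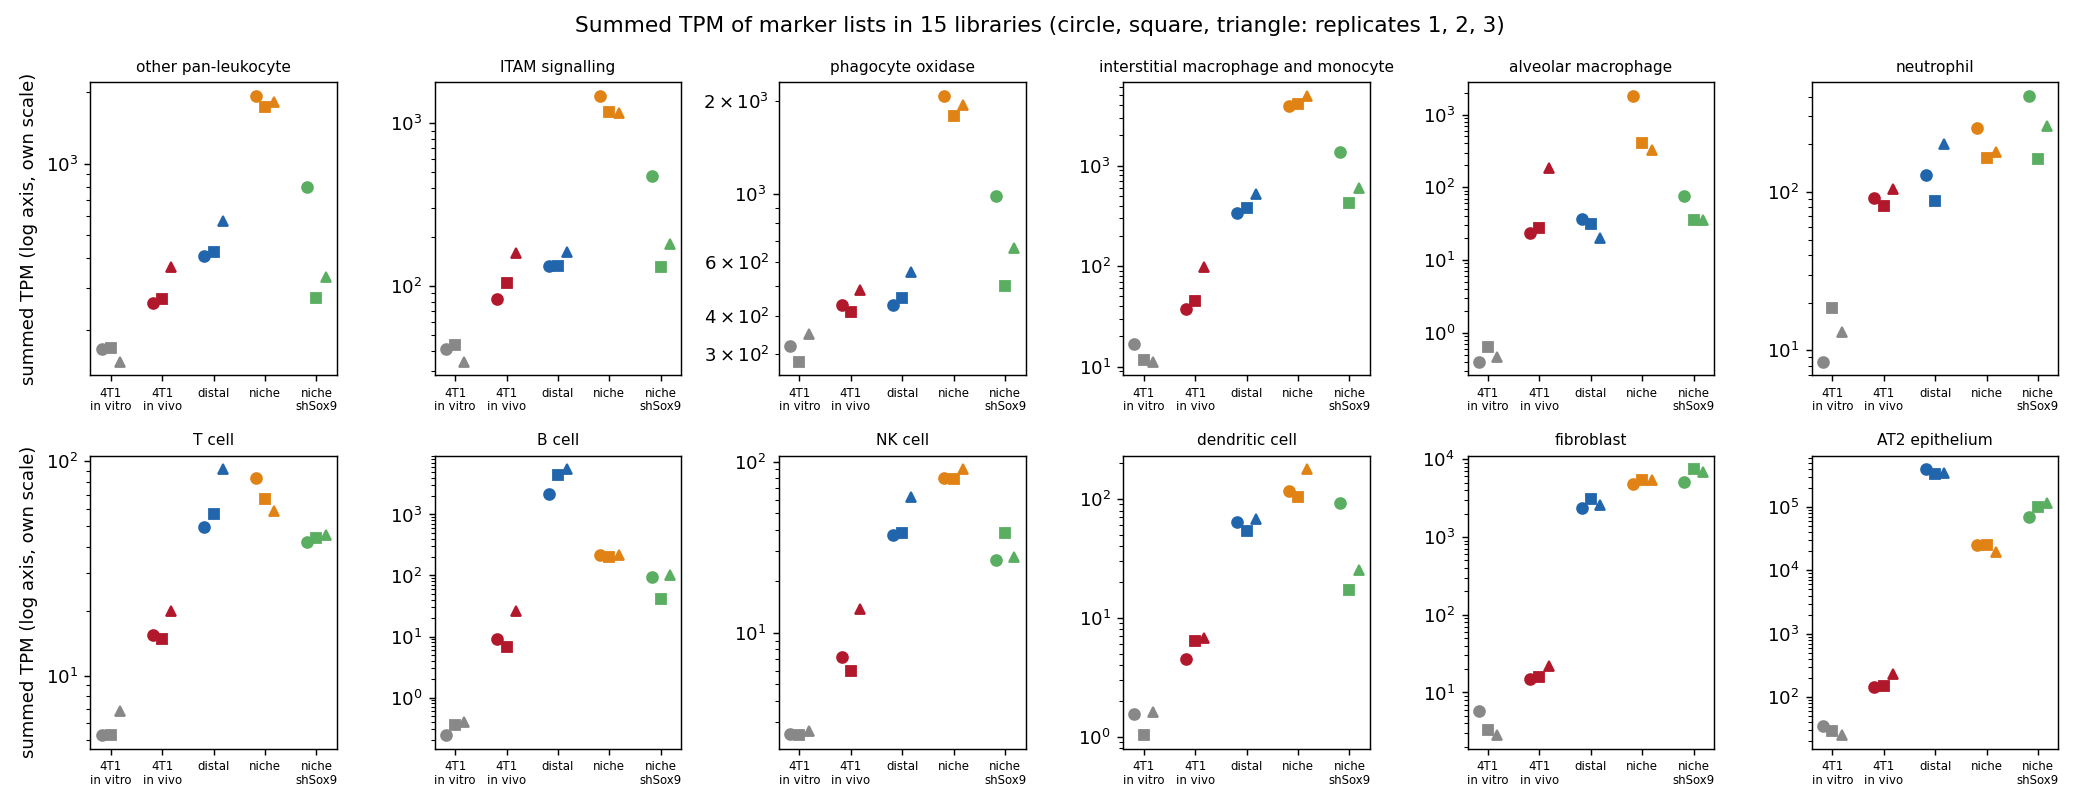
Summed TPM of marker lists in each of the 15 libraries, on a log scale, by group. Interstitial macrophage and monocyte markers stand at 3933 to 4976 TPM in niche libraries and at 339 to 518 in distal libraries, while AT2 markers are highest in distal libraries.

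Genes whose profile over the 15 libraries was most like the list were ranked by the root mean square difference between centred log2(TPM + 1) profiles, using the mean of the 9 genes other than Lyz2. Among 13013 genes with a mean of at least 5 TPM in 1 group, the nearest genes outside the list were Evl (0.30), an actin regulator, and Csf2ra (0.32), a chain of the receptor for the cytokine GM-CSF. Next were Alox5ap (0.35), which serves leukotriene synthesis, Cybb (0.38), and Plek (0.42), a protein kinase C substrate of platelets and leukocytes. Evl stood at 15.2 to 19.5 TPM in distal, 122 to 135 in niche and 15.5 to 31.2 in shSox9 libraries, and was at 0 in culture. Within the list, Cd53 (0.24) and Laptm5 (0.29) ranked 1 and 2 of all genes, though both enter the mean they were compared with. Ctss ranked 243, Itgb2 3286 and Lyz2 9261. With 0.1 in place of 1 as pseudocount, 3 of the 5 nearest genes were shared, and Cd53 ranked 7 and Laptm5 21.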

How the data were processed

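Libraries were made from total RNA with a KAPA kit and read at 75 bases, per the labels' protocols. The authors deposited, for each library, expected counts (estimates that need not be whole), TPM and FPKM from RSEM on GRCm38, per the submitters' processing notes, which also name DESeq2. The aligner, annotation release, strand setting and versions were not given in the sources used. FPKM was not used. Of the 54838 identifiers, 54723 (99.8%) had a GENCODE M21 symbol.

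Expected counts were rounded and tested with edgeR 4.0.16 in R 4.3.3 (quasi-likelihood F-test, TMM, filterByExpr, Benjamini-Hochberg over all genes tested, two-sided, 0.05). The 6 4T1 libraries and the 9 epithelial libraries were fitted apart, and all 15 for 4T1 cells against niche. CPM after TMM is scaled over all 15. Alternatives used limma 3.58.1 on log2(TPM + 1) and DESeq2 1.42.0. The fits were tested on simulated data. No pair of libraries within a group was alike within sampling noise (chi-square over degrees of freedom of 7.66 to 39.4). No label says whether 4T1 replicates were separate cultures or animals, and those p-values measure the spread between libraries, which may be technical. Counting intervals and floors cover counting error only.

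The 10 genes, the other lists and the tests were chosen with earlier results of these data known. Every one of the 10 genes is named in each comparison. From each other list at most 4 genes are named, those of highest mean TPM over the 12 libraries of cells from lung, and genes most like the list by the measure given. Epcam, Itgal, Itgam and Itgax are named apart from this rule, after their values were seen.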

Additional observations from a re-analysis of the deposited data

How the results depend on the processing

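The counts of the 10 genes called, and the number of all genes called, stayed within 1.5 times of the reported values under every alternative run, with 2 exceptions. Without niche replicate 1, 2238 genes were called between shSox9 and niche libraries in place of 3616 (2238 to 4224 as each library was left out). Without shSox9 replicate 1, 8 of the 10 genes were called lower than in distal libraries in place of 3 (2 to 8 as each was left out). With the replicate block the number of genes called was 7487 for 4T1 in vivo against in vitro, 9500 for niche against distal, 3638 for shSox9 against niche, 7692 for shSox9 against distal and 11906 for in vivo against niche. It changed no count of the 10 genes, and same-numbered libraries correlated at -0.057 to 0.13, so the numbers were not taken as pairs. Between shSox9 and niche each library correlated best with its own number, at 0.091 to 0.13.

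Sign changes arose only between shSox9 and distal libraries, in genes not called there. By limma on log2(TPM + 1) the log2 fold change was 0.24 for Laptm5, 0.048 for Cd53 and 0.35 for Itgb2. With the replicate block it was -0.091 for Ctss and -0.036 for Fcer1g, and with only the 6 libraries compared as well, an alternative chosen after seeing the data, -0.19 and -0.12. As each library was left out it ran from -0.82 to 0.64 for Ctss, -0.26 to 0.99 for Tyrobp, -0.66 to 0.46 for Fcer1g, -0.99 to 0.16 for Laptm5, -1.11 to 0.15 for Cd53 and -0.73 to 0.17 for Itgb2. The call for Ptprc was lost in that comparison by limma (adjusted p = 0.37), with only its 6 libraries fitted (edgeR adjusted p = 0.052) and without shSox9 replicate 2 or 3 or distal replicate 1 or 3 (edgeR adjusted p of 0.0581 to 0.154). The cause of these changes was not tested. The number of libraries, 3 a group, limits the precision of single genes, and 3 counts in a library set the lowest level that can be told from 0.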
